A study of Mus musculus with 12 samples.

Results

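RNA captured on tagged neuronal ribosomes was compared with the total RNA of the cortex it was captured from. The comparison used 6 of the 12 libraries of the study, chosen by their titles, namely the 3 libraries called TRAP and the 3 called WCH. All came from the cortex of mice of the SNAP25 BacTRAP line at postnatal day 21. TRAP libraries hold RNA immunoprecipitated with tagged ribosomes from the cortex, and WCH libraries hold RNA of the whole cortex homogenate before that step. SynapTRAP and SNF, each with 3 libraries, are the immunoprecipitate from a synaptic fraction and that fraction itself, and they serve below as the comparison with a second pull-down. Every group carries the transgene, so no library comes from an animal without it. Of 29879 genes counted, 13137 had enough reads to be tested.

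In a BacTRAP mouse a bacterial artificial chromosome carries a ribosomal protein fused to green fluorescent protein (GFP), here under the regulatory sequences of Snap25, which encodes a neuronal protein of synaptic vesicle fusion. Antibodies against GFP pull down ribosomes made in the cells that use those sequences, together with the mRNA bound to them. The method, translating ribosome affinity purification (TRAP), therefore reads ribosome-bound RNA of one class of cells, whereas homogenate holds all RNA of all cells, including nuclear RNA, RNA inside mitochondria and mRNA that is not on ribosomes. In both kinds of bulk sample, fewer cells of a type and less RNA per cell cannot be told apart. Nothing in the labels says that the replicates came from separate animals, so p-values cover the spread between these samples only.

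Gene counts numbered 6503955, 4368881 and 6378765 in TRAP replicates 1 to 3, against 7650524, 9567146 and 9082512 in WCH. RNA of the mitochondrial genome took 0.930% to 5.43% of them in TRAP and 33.6% to 50.9% in WCH, and it was left out when libraries were scaled. Reads assigned to no gene made up 15.6% to 16.7% of all reads in TRAP and 17.7% to 27.2% in WCH. The TRAP libraries differed more among themselves than the WCH libraries did: the median standard deviation (SD) of log2 counts-per-million values (CPM) was 0.299 in TRAP and 0.153 in WCH over the 6862 genes with a mean of at least 20 CPM, and 78.3% of those genes were more variable in TRAP. In all 4 groups the library numbered 1 held Xist RNA and the others almost none, with 1148, 10 and 1 Xist counts in TRAP and 2295, 4 and 0 in WCH. Ddx3y, a gene of the Y chromosome, went the other way, with 0, 109 and 176 counts in TRAP and 0, 422 and 374 in WCH. The library numbered 1 thus differed in sex from the others of its group, which the labels do not state.

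The mRNA of the tag was looked at first. That of Snap25, whose regulatory sequences drive the tag, did not pass the same test, as described below. GFP reached 45.6, 46.2 and 117 CPM in TRAP, against 15.4, 9.88 and 12.8 CPM in WCH. All TRAP values exceeded all WCH values, and the log2 fold change of TRAP over WCH was 2.45 (standard error (SE) 0.33, quasi-likelihood test of edgeR with Benjamini-Hochberg adjustment, adjusted p = 7.09e-05). Rpl10a, which encodes a protein of the large ribosomal subunit, stood at 2.16, 2.68 and 2.54 CPM in TRAP and 1.63, 1.86 and 2.52 CPM in WCH. These values are uncertain, since reads of ribosomal protein genes can be lost to near-identical pseudogenes.

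By the same test, at an adjusted p under 0.05, 1497 genes (11.4% of those tested) were higher in TRAP and 1480 (11.3%) were lower. Of the called genes, 716 were higher by a log2 fold change of at least 1 and 988 were lower by at least as much, and the median over all genes tested was −0.02. In 2878 of the 2977 called genes the 3 TRAP values and the 3 WCH values did not overlap, while all TRAP values exceeded all WCH values in 20.7% of all genes tested and fell short of them in 23%. The number of calls depended on single libraries. It was 720 higher and 711 lower without WCH replicate 2, 850 and 1030 without WCH replicate 1, 826 and 785 without WCH replicate 3, and 826 and 974 without TRAP replicate 3. With libraries scaled by their total counts outside the mitochondrial genome, 974 genes were higher and 1776 lower, so that 35.4% of calls were higher instead of 50.3%, and the median of all genes was −0.13.

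**Figure D1:**
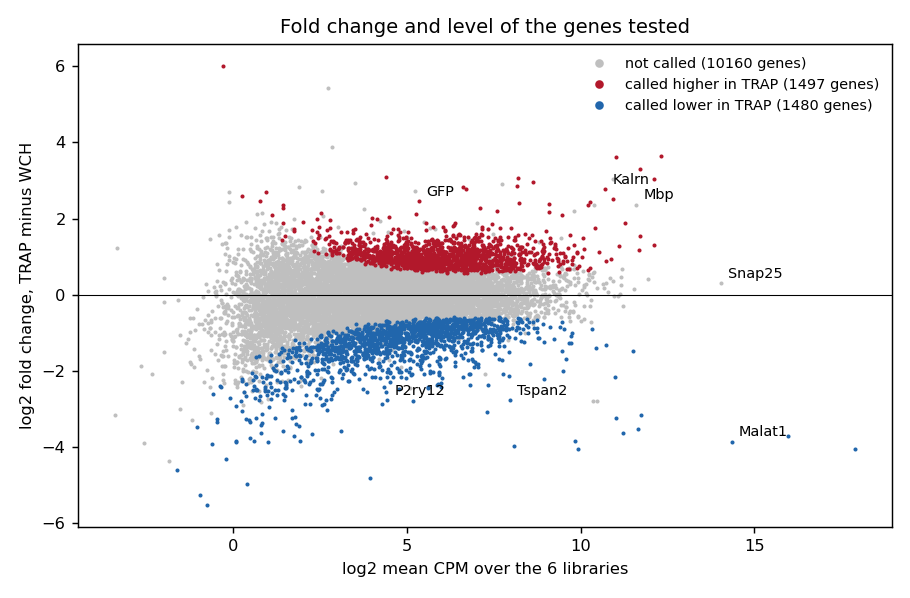
Each point is a gene tested, with its mean level over the 3 TRAP and 3 WCH libraries (log2 CPM) on the x axis and its log2 fold change of TRAP over WCH on the y axis. Of the 13137 genes, 1497 were called higher and 1480 lower in TRAP, at all levels of expression, and low-level genes needed larger fold changes to be called.

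The composition of a transcript separated the genes that were higher in TRAP from those that were lower more sharply than the length of its coding part. Among 12699 protein-coding genes, 28.9% of the quartile richest in G and C were higher and 1.80% were lower, while 0.756% of the poorest quartile were higher and 27.1% were lower. The quartiles in between had 13.7% and 3.46% higher, in order of falling GC, and 4.0% and 11% lower. The median GC content was 56.3% in genes called higher, 44.0% in genes called lower and 50.5% in all. GC at the third position of codons, which mostly does not change the amino acid, followed the same order, with 22.7% of the highest quartile and 1.37% of the lowest called higher. Across genes, the Spearman correlation of the log2 fold change with GC content was 0.55. It was 0.38, 0.51 and 0.59 when each TRAP replicate was set alone against the mean of WCH, and 0.30 for SynapTRAP over SNF. These correlations are across genes, which are not independent replicates, and they share the libraries. The part of GC-dependent amplification or alignment in them was not tested.

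The 4 stretches of coding sequence below are shown as examples of genes with high and with low GC content. They were picked by hand from the called genes named here, so they need not be the extremes of GC content. Each is the middle 90 bases (30 codons) of the longest coding sequence in GENCODE M21 (GRCm38). Capitals mark the third base of each codon.
Dlgap3: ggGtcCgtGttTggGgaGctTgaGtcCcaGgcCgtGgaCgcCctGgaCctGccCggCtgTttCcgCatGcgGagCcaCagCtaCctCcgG
Grik5: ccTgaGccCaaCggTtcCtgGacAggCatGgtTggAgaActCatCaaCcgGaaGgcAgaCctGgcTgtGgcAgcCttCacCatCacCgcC
Fut9: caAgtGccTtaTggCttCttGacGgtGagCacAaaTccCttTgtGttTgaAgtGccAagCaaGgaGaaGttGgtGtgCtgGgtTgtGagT
Fmr1: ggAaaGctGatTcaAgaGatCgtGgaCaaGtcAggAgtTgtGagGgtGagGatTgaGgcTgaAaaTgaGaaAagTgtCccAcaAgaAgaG
In these windows 27, 21, 19 and 15 of the 30 codons ended in G or C, in the order shown. Over the whole coding sequence the share was 74.2%, 80.4%, 48.5% and 34.9% in the same order, so a window can depart from its gene, as those of Grik5 and Fut9 do. Dlgap3 (chr4:127169204-127237022, plus strand), which encodes a scaffold protein of the postsynaptic density, had 136, 96.9 and 183 CPM in TRAP against 61.8, 57.6 and 51.7 CPM in WCH. Its log2 fold change was 1.28 (edgeR SE 0.27, adjusted p = 0.00208), and its transcript has a GC content of 63.9%. Grik5 (chr7:25009849-25072346, minus strand), which encodes a subunit of kainate-type glutamate receptors, had 127, 180.5 and 246 CPM in TRAP and 87.1, 89.8 and 90.7 CPM in WCH, with no overlap (log2 fold change 1.05, edgeR SE 0.25, adjusted p = 0.00485). Fut9 (chr4:25609332-25800244, minus strand), a fucosyltransferase that makes the Lewis X glycan, went the other way, with 179, 182 and 127 CPM in TRAP and 463, 574 and 695 CPM in WCH. Its log2 fold change was −1.83 (edgeR SE 0.24, adjusted p = 5.02e-05), its GC content is 35.0% and its 3′ untranslated region is 10404 bases long. Fmr1 (chrX:68678541-68717963, plus strand), which encodes the RNA-binding protein FMRP, a repressor of translation at synapses, had 58.1, 42.7 and 34.1 CPM in TRAP and 82.0, 101 and 95.0 CPM in WCH, again with no overlap (log2 fold change −1.04, edgeR SE 0.24, adjusted p = 0.00478).

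The length of the 3′ untranslated region, where most regulatory sites of an mRNA lie, showed a similar order. In the quartile with the shortest regions, up to 421 bases, 20.8% of genes were higher and 4.52% lower, while in the quartile with the longest, from 2159 bases, 3.67% were higher and 22.4% lower. The median length was 511 bases in genes called higher and 2225 bases in genes called lower. The features go together, with a Spearman correlation of −0.39 between GC content and this length across genes, so they were also crossed. Within the GC-poorest quartile, 14% of genes with short and 39.3% of genes with long 3′ untranslated regions were lower. Within the GC-richest quartile, 33.5% and 24.9% of them were higher. Coding length showed little order, with 14.5%, 10.6%, 9.48% and 12.2% of genes higher and 9.39%, 11.3%, 12.4% and 11% lower, in quartiles of rising length. Abundance also differed, since 21.9% of the quartile with the highest mean level and 1.48% of the lowest were called higher. Calls in the other direction were also fewer at low level, with 12.5% of the highest quartile and 7.69% of the lowest called lower.

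**Figure D2:**
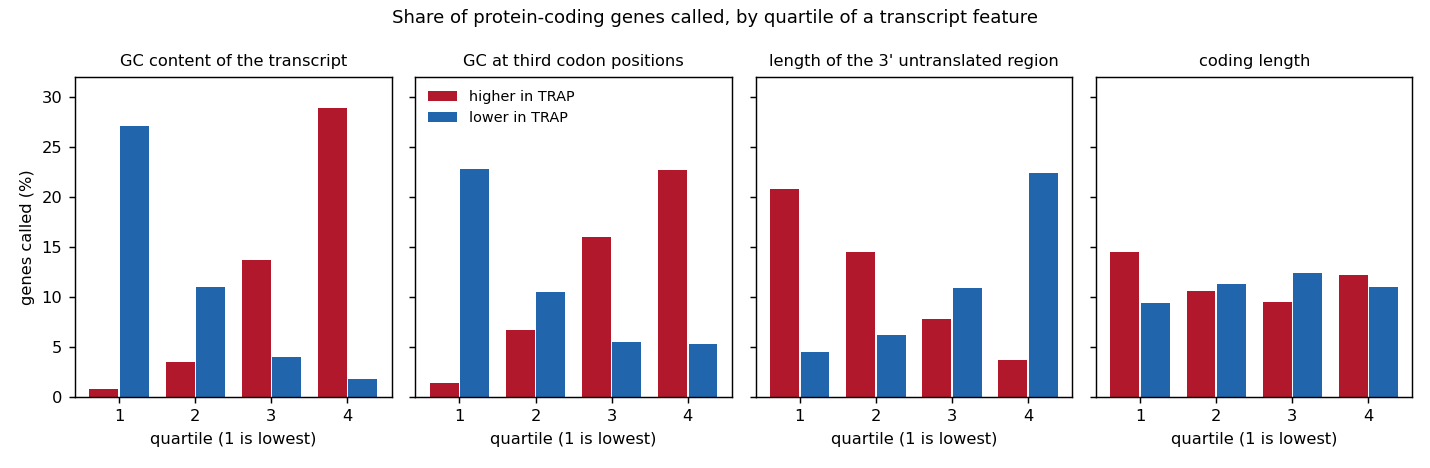
Bars give the share of protein-coding genes called higher (red) or lower (blue) in TRAP than in WCH, in percent, in each quartile of the transcripts ordered by 4 features of the GENCODE M21 transcript with the longest coding sequence. Calls turned from lower to higher with rising GC content (28.9% higher and 1.80% lower in the top quartile) and from higher to lower with rising length of the 3′ untranslated region, and they changed little with coding length.

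Pan-neuronal marker genes were more often higher than lower in TRAP. Of 20 pan-neuronal genes 9 were higher in TRAP and 1, the RNA-binding protein gene Elavl2, was lower, with a median log2 fold change of 0.60. Their log2 fold changes ran from −2.80 to 1.67, and the lowest belonged to a gene that was not called. In 10 of the 20 the TRAP values stood clear above those of WCH, and in 3 clear below, against 20.7% and 23% of all genes tested. Dnm1, the dynamin of synaptic vesicle retrieval, had 1070, 1130 and 1737 CPM in TRAP and 642, 580 and 590 CPM in WCH (log2 fold change 1.12, edgeR SE 0.24, adjusted p = 0.00273). Snap25 itself, whose regulatory sequences drive the tag, had 22549, 13560 and 19610 CPM in TRAP and 14467, 16025 and 14925 CPM in WCH. Its groups overlapped, and its log2 fold change was 0.29 (edgeR SE 0.28, adjusted p = 0.469). Rbfox3, which encodes the neuronal nuclear antigen NeuN, stood at 365, 372 and 376 CPM in TRAP, above its 250, 248 and 206 CPM in WCH (log2 fold change 0.66, edgeR SE 0.21, adjusted p = 0.0274). The count of 9 rested on single libraries: it was 1 without TRAP replicate 3, 3 or 4 without a WCH replicate, and 10 without TRAP replicate 2. The call of Elavl2 (log2 fold change −0.67, adjusted p = 0.0301) held only without TRAP replicate 1. The call of Rbfox3 was lost without TRAP replicate 3 or any WCH replicate (edgeR adjusted p up to 0.103).

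Markers of neuron classes were called in small numbers. Of 15 excitatory markers 4 were higher and 0 lower (median 0.35). Of 20 inhibitory markers 3 (15%) were higher and 1 (5%) lower (median −0.17), against 11.4% and 11.3% of all genes, so that list did not stand out. The higher counts were 1 and 1 without TRAP replicate 3, 2 and 1 without any WCH replicate, and 4 and 1 without TRAP replicate 1. Slc30a3, the vesicular zinc transporter of a class of glutamatergic terminals, had 132, 197 and 292 CPM in TRAP and 97.6, 74.9 and 98.9 CPM in WCH (log2 fold change 1.19, edgeR SE 0.30, adjusted p = 0.00682). Slc17a7, the vesicular glutamate transporter of most cortical excitatory neurons, had 748, 1150 and 691 CPM in TRAP and 491, 496 and 496 CPM in WCH. That difference only just passed (log2 fold change 0.80, edgeR SE 0.29, adjusted p = 0.0493) and was lost without any one of the 6 libraries, up to an adjusted p of 0.217. The inhibitory markers did not move as one. Gad1, which makes the transmitter GABA, had 299, 164 and 180 CPM in TRAP and 242, 197 and 237 CPM in WCH, and Gad2 had 387, 341 and 284 CPM in TRAP and 601, 481 and 415 CPM in WCH. Neither was called (edgeR adjusted p = 0.88 and 0.126), and the sign of Gad1 turned under several other settings. Among peptides that mark classes of interneurons, Sst was higher, with 408, 400 and 428 CPM in TRAP against 125, 122.7 and 186 CPM in WCH (log2 fold change 1.51, edgeR SE 0.46, adjusted p = 0.0328). Vip was lower, with 12.4, 13.4 and 12.2 CPM in TRAP against 21.2, 27.2 and 40.2 CPM in WCH (log2 fold change −1.22, edgeR SE 0.30, adjusted p = 0.00615). The call of Sst was lost without TRAP replicate 1 or 3 or any WCH replicate (adjusted p up to 0.118), that of Vip without WCH replicate 3 (0.0833) and that of Slc30a3 without TRAP replicate 3 or WCH replicate 2 (up to 0.0769). Markers of cortical layers gave 1 higher and 3 lower of 15, with Fezf2 of deep-layer projection neurons higher (log2 fold change 0.85, edgeR adjusted p = 0.0193, lost without TRAP replicate 3 or WCH replicate 1). Rorb, a marker of the input layer, was lower (log2 fold change −0.99, edgeR adjusted p = 0.00717).

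Many but not all markers of glia were lower in TRAP, and none of the glial lists was at zero there. Of 20 oligodendrocyte markers 11 were lower and 0 higher (median −1.38), of 20 microglia markers 8 and 0 (median −1.16), of 20 astrocyte markers 7 and 0 (median −0.86), and of 13 markers of oligodendrocyte precursors 3 and 0 (median −0.72). Without TRAP replicate 3 the lower counts of these 4 lists were 11, 9, 9 and 7. Without TRAP replicate 2, 3 of the precursor markers were higher. The precursor markers averaged 4.61, 3.77 and 5.35 log2(CPM + 1) in TRAP and 5.08 to 5.14 in WCH, and their summed level was 689, 285 and 1613 CPM in TRAP and 668 to 766 CPM in WCH, so TRAP replicate 3 lay above every WCH library. The microglia count was 4 without TRAP replicate 2 or any WCH replicate. Mal, a proteolipid of compact myelin, had 114, 62.1 and 97.7 CPM in TRAP against 434, 415 and 352 CPM in WCH (log2 fold change −2.13, edgeR SE 0.29, adjusted p = 8.23e-05). P2ry12, the purine receptor of resting microglia, had 8.05, 2.87 and 5.45 CPM in TRAP against 29.7, 43.2 and 41.0 CPM in WCH (log2 fold change −2.77, edgeR SE 0.31, adjusted p = 1.49e-05). Slc1a3, an astrocytic glutamate transporter, had 72.8, 26.6 and 69.4 CPM in TRAP against 199, 153 and 277 CPM in WCH (log2 fold change −1.89, edgeR SE 0.32, adjusted p = 0.000511). In these genes every TRAP library lay below every WCH library, and in each TRAP replicate 2 was the lowest.

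Some fixed glial markers were not called. Mbp, the myelin basic protein, had 2692, 323 and 12600 CPM in TRAP and 955, 1093 and 977 CPM in WCH, so that its TRAP values ran from far below to far above the homogenate (log2 fold change 2.37, edgeR SE 1.05, adjusted p = 0.145). Gfap, the intermediate filament of astrocytes, had 32.2, 17.6 and 70.1 CPM in TRAP and 37.4, 37.9 and 35.0 CPM in WCH, and Csf1r, a receptor of microglia, had 15.0, 9.20 and 31.8 CPM in TRAP and 26.6, 30.6 and 31.5 CPM in WCH. Neither passed the test (edgeR adjusted p = 0.841 and 0.248). With Mbp among them, the summed level of the 20 oligodendrocyte markers was 5340, 1550 and 15638 CPM in TRAP and 6896, 8396 and 6696 CPM in WCH.

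Vessel markers stood apart in a single library. Of 14 endothelial markers 1 was called, Vwf, a clotting protein of endothelial cells, with 4.17, 5.17 and 0.726 CPM in TRAP and 0.817, 0.286 and 0.388 CPM in WCH (log2 fold change 2.70, edgeR SE 0.91, adjusted p = 0.0363). Its groups overlapped, and the call was lost without TRAP replicate 1 or 2 or any WCH replicate (up to 0.134). The mean level of the 14 markers was 1.70, 3.59 and 1.96 log2(CPM + 1) in TRAP and 1.89, 1.93 and 2.0 in WCH, and their summed level was 233 CPM in TRAP replicate 2 against 70.5 and 132 CPM in TRAP replicates 1 and 3 and 79.2 to 86.5 CPM in WCH. Mural cell markers averaged 2.01, 3.04 and 1.75 log2(CPM + 1) in TRAP and 2.13 to 2.28 in WCH. Cldn5, the tight junction protein that defines brain endothelium, was near its detection limit at 0.719, 7.09 and 0.908 CPM in TRAP and 0, 1.0 and 1.36 CPM in WCH. The part of this library's vessel RNA in any other difference was not tested. Without TRAP replicate 2 the endothelial median was 0.12, against 1.03 with it, and the Benjamini-Hochberg calls numbered 1367 higher and 1027 lower.

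**Figure D3:**
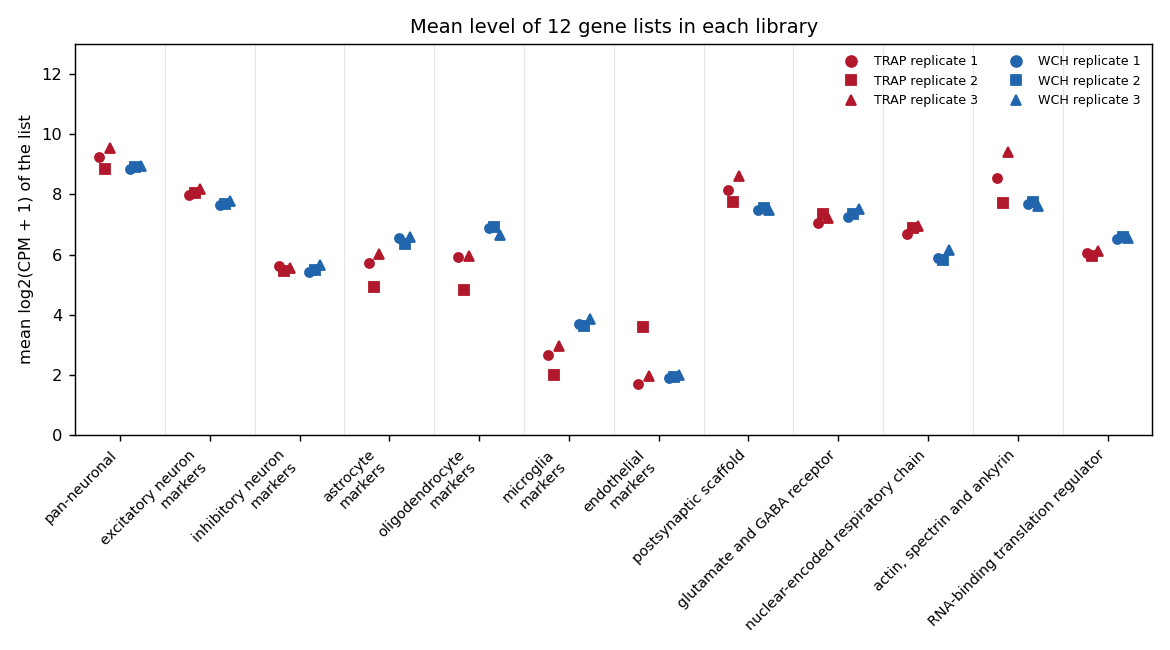
Each point is the mean of log2(CPM + 1) over the members of a gene list in 1 library, with TRAP in red to the left of WCH in blue and symbols for replicates. The astrocyte, oligodendrocyte and microglia lists lay lower in every TRAP library than in any WCH library (oligodendrocyte precursor markers, not plotted, did not), respiratory chain genes lay higher in every TRAP library, and TRAP replicate 2 stood alone for endothelial markers.

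Synaptic genes were counted by role, and no test compared these lists with each other. Postsynaptic scaffold genes, which encode the proteins that hold receptors at excitatory synapses, were higher in TRAP in 12 of 26 cases and lower in 0 (median 0.76), while glutamate and GABA receptor genes were higher in 4 of 27 (14.8%, near the 11.4% of all genes) and lower in 7 (median −0.30). Over the fits that left out 1 TRAP or WCH library, the scaffold count ran between 8 (without TRAP replicate 3) and 15. The receptor count of 7 was between 1 (without WCH replicate 3) and 5 (without WCH replicate 1), with 2 or 3 in the other such fits. Iqsec2, an exchange factor of the postsynaptic density, had 220, 148 and 370 CPM in TRAP and 78.0, 80.3 and 63.3 CPM in WCH (log2 fold change 1.73, edgeR SE 0.29, adjusted p = 0.000463). Subunits of a single receptor type parted. Grin1, the obligatory subunit of the NMDA receptor, had 594, 595 and 1245 CPM in TRAP, against 317, 266 and 287 CPM in WCH (log2 fold change 1.48, edgeR SE 0.29, adjusted p = 0.00125). Grin2b, the subunit that prevails early in development, had 834, 951 and 1120 CPM in TRAP and 2281, 2337 and 2613 CPM in WCH (log2 fold change −1.32, edgeR SE 0.26, adjusted p = 0.00155). Neither gene's groups overlapped, and both calls held without any one library. Among other receptors, the presynaptic metabotropic receptor gene Grm2 (log2 fold change 1.17, edgeR SE 0.27, adjusted p = 0.00402) and the kainate receptor gene Grik5 were higher. Grm5, a postsynaptic metabotropic receptor gene, was lower (−1.04, SE 0.24, 0.00452), and this call was lost without WCH replicate 3 (0.0603). The receptor list has a median GC content of 46.0% and a median 3′ untranslated region of 2256 bases, whereas the scaffold list has 55.1% and 1570.5 bases.

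Presynaptic genes of the vesicle cycle were higher in 12 of 40 cases and lower in 1 (median 0.43), with 7 higher without TRAP replicate 3 and 5 to 7 without a WCH replicate. Ppfia3, a liprin of the active zone, had 89, 66.7 and 145 CPM in TRAP and 39.1, 40.8 and 30.3 CPM in WCH (log2 fold change 1.44, edgeR SE 0.27, adjusted p = 0.00101). The 1 lower gene was Rab3c, a GTPase of vesicle release, with 495, 546 and 501 CPM in TRAP and 1011, 1009 and 874 CPM in WCH (log2 fold change −0.91, edgeR SE 0.21, adjusted p = 0.00397). Subunits of the vacuolar proton pump, which acidifies vesicles, were higher in 6 of 19 cases and lower in 1 (median 0.64), with Atp6v1f at 73.5, 103 and 80.3 CPM in TRAP and 35.0, 28.9 and 33.4 CPM in WCH (log2 fold change 1.40, edgeR SE 0.26, adjusted p = 0.000909). Without TRAP replicate 3 that count was 3, and it was 2 without any WCH replicate. Granin and neuropeptide genes were higher in 6 of 22 cases and lower in 2 (median 0.51), but only 1 was higher without TRAP replicate 3, 4 without TRAP replicate 1 and 2 without any WCH replicate. Pcsk1n, a granin-like inhibitor of a prohormone convertase, was higher at 167, 237 and 250 CPM in TRAP against 118, 91.5 and 89.3 CPM in WCH (log2 fold change 1.13, edgeR SE 0.27, adjusted p = 0.00557).

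Channels for sodium, potassium and calcium gave 6 higher (15.8%) and 4 lower (10.5%) of 38 (median 0.05), shares near the 11.4% and 11.3% of all genes, so only single members are described. Without TRAP replicate 3 the higher count was 3. Kcnh3, a potassium channel of forebrain neurons, had 78.2, 125 and 171 CPM in TRAP and 45.4, 41.2 and 45.6 CPM in WCH (log2 fold change 1.5, edgeR SE 0.25, adjusted p = 0.000454). Kcnq3, a subunit of the M-current channel, had 427, 393 and 297 CPM in TRAP and 855, 1006 and 1283 CPM in WCH (log2 fold change −1.49, edgeR SE 0.24, adjusted p = 0.000336). Auxiliary subunits of calcium channels parted too, with Cacnb1 higher (1.04, SE 0.22, adjusted p = 0.00251) and Cacnb4 lower (−1.16, SE 0.25, adjusted p = 0.00274) in the same edgeR test.

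Genes of energy metabolism were among those most often higher. Nuclear-encoded respiratory chain genes were higher in 52 of 77 cases and lower in 0 (median 1.06), and between 43 and 50 of them were higher when any 1 of the 6 libraries was left out. Their transcripts have an unremarkable median GC content of 51.0% but short 3′ untranslated regions, with a median of 165 bases against 1058 for all protein-coding genes. Other lists departed from that order. The microglia list (median log2 fold change −1.16) has medians of 241.5 bases and 53.0% GC, and the cytosolic chaperone list (median 0.50) has 47.7% GC. Whether such features account for the shift of any list was not tested. Uqcr11, a small subunit of complex III, had 150, 240 and 277 CPM in TRAP and 73.1, 51.5 and 68.6 CPM in WCH (log2 fold change 1.79, edgeR SE 0.24, adjusted p = 7.09e-05). Citric acid cycle genes were higher in 10 of 22 cases and lower in 0 (median 0.50; 6 without TRAP replicate 3), including Idh3g, a subunit of isocitrate dehydrogenase, with 197, 221 and 399 CPM in TRAP and 95.6, 102 and 95.4 CPM in WCH (log2 fold change 1.48, edgeR SE 0.26, adjusted p = 0.000547). Genes of mitochondrial ribosomal proteins were higher in 22 of 74 (median 0.53; 9 and 7 without WCH replicates 1 and 2), and Mrps12 among them had a log2 fold change of 1.39 (edgeR SE 0.25, adjusted p = 0.000692). Carriers of the inner mitochondrial membrane gave 5 higher (12.8%) and 4 lower (10.3%) of 39, near the 11.4% and 11.3% of all genes (median −0.16). Their higher count was 0 to 2 without TRAP replicate 3 or a WCH replicate, and 7 without TRAP replicate 2. Slc25a36, a pyrimidine nucleotide carrier, was lower at 31.2, 43.7 and 35.4 CPM in TRAP against 85.2, 93.1 and 108 CPM in WCH (log2 fold change −1.37, edgeR SE 0.22, adjusted p = 0.000347). Genes of cholesterol synthesis gave 3 higher and 3 lower of 19 (15.8% each), not far from the 11.4% and 11.3% of all genes. They gave 0 to 3 higher and 1 or 2 lower when a library was left out. Glycolysis genes were higher in 11 of 16 cases and lower in 0 (median 1.10). Hk1, the brain hexokinase, had 257, 249 and 360 CPM in TRAP and 122.7, 108 and 89.3 CPM in WCH (log2 fold change 1.44, edgeR SE 0.26, adjusted p = 0.00084), and all TRAP values exceeded all WCH values.

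Among lists of the translation machinery most members were not called. Translation factors were higher in 14 of 43 cases and lower in 0 (median 0.40; 8 without TRAP replicate 3 or WCH replicate 3), and aminoacyl-tRNA synthetases in 6 of 18 and 0 (median 0.49; 1 to 4 when a library was left out). Cytosolic ribosomal protein genes were higher in 15 of 68 cases and lower in 0 (median 0.47), with 5 higher without TRAP replicate 3, 7 without WCH replicate 2 and 25 without TRAP replicate 1, and these counts are uncertain because of near-identical pseudogenes. Eif3k, a subunit of the initiation factor eIF3, had 77.5, 96.6 and 222 CPM in TRAP and 40.9, 53.4 and 40.2 CPM in WCH (log2 fold change 1.56, edgeR SE 0.32, adjusted p = 0.00221). RNA-binding regulators of translation were higher in 0 and lower in 10 of 26 cases (median −0.61), with 5 (without WCH replicate 2) to 8 lower when 1 library was left out. Ago3, an Argonaute protein of microRNA silencing, had 37.8, 37.2 and 50.8 CPM in TRAP and 181, 183 and 171 CPM in WCH (log2 fold change −2.09, edgeR SE 0.26, adjusted p = 3.03e-05). Ddx6, a helicase of mRNA repression, had 103, 88.1 and 77.7 CPM in TRAP and 169, 178 and 168 CPM in WCH (log2 fold change −0.94, edgeR SE 0.20, adjusted p = 0.00283). Every TRAP library lay below every WCH library in Ago3, Ddx6 and Fmr1, the members of this list named by the smallest p. The list has a median 3′ untranslated region of 2448 bases and a median GC content of 47.4%. Growth signalling through mTOR was split at 5 higher and 5 lower of 25 (median −0.07; higher in 2 or 3 without TRAP replicate 2 or 3 or any WCH replicate, and lower in 2 without WCH replicate 2). Hras, a small GTPase of growth signalling, was higher (log2 fold change 1.41, edgeR SE 0.24, adjusted p = 0.000516). It had 120, 236 and 217 CPM in TRAP and 81.4, 60.0 and 74.4 CPM in WCH. The groups of Hras did not overlap.

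Genes of protein folding and turnover came next. Proteasome subunits were higher in 17 of 36 cases and lower in 0 (median 0.57; 12 without TRAP replicate 3), and cytosolic chaperones in 10 of 24 with 1 lower (median 0.51; 3 without TRAP replicate 3 and 4 to 6 without a WCH replicate). Cct7, of the chaperonin that folds tubulin and actin, had 151, 146 and 205 CPM in TRAP and 80.2, 67.0 and 81.2 CPM in WCH (log2 fold change 1.14, edgeR SE 0.22, adjusted p = 0.00137). Ubiquitin ligases and deubiquitinases were not shifted one way, with 15 higher and 21 lower of 147 (median −0.03), shares near those of all genes. Of these, 8 to 13 were lower without TRAP replicate 3 or WCH replicate 2 or 3. In that list Rnf208 was higher at 158, 287 and 182 CPM in TRAP against 83.4, 64.6 and 58.8 CPM in WCH (log2 fold change 1.60, edgeR SE 0.24, adjusted p = 0.000193). Rnf138 was lower at 7.62, 5.36 and 5.45 CPM in TRAP against 17.5, 23.8 and 26.6 CPM in WCH (log2 fold change −1.87, edgeR SE 0.37, adjusted p = 0.00145). Golgi glycosyltransferases were higher in 7 (10.1%) and lower in 13 (18.8%) of 69 cases (median −0.33), against 11.4% and 11.3% of all genes. The higher share was thus near that of all genes. Galnt9 was higher (1.30, SE 0.24, edgeR adjusted p = 0.000989) and Fut9 lower. The counts of this list ran between 1 and 12 higher and between 6 and 12 lower when 1 library was left out, lowest without WCH replicates 2 and 3.

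Lists of calcium signalling, the endoplasmic reticulum and protocadherins had shares of calls that were small or not far from those of all genes (11.4% higher and 11.3% lower), with 11.1% and 3.70%, 12.5% and 15.6%, and 2.94% and 11.8% in that order of lists. Genes of calcium and calmodulin signalling were higher in 3 and lower in 1 of 27 cases (median 0.19; 5 higher without TRAP replicate 2). Itpka, a kinase of inositol trisphosphate in dendritic spines, had 178, 127 and 142 CPM in TRAP and 76.5, 63.9 and 70.9 CPM in WCH (log2 fold change 1.08, edgeR SE 0.24, adjusted p = 0.00368). Camk4, a calmodulin kinase of the nucleus, had 501, 594 and 597 CPM in TRAP and 1003, 1287 and 1141 CPM in WCH (log2 fold change −1.02, edgeR SE 0.22, adjusted p = 0.0027), so the TRAP and WCH libraries did not overlap for either kinase, in opposite directions. Translocon and chaperone genes of the endoplasmic reticulum gave 4 higher and 5 lower of 32 (median 0.35; 1 or 2 higher without TRAP replicate 3 or WCH replicate 1 or 2, and 2 or 3 lower without TRAP replicate 1 or 3 or WCH replicate 2 or 3). Ssr3, a subunit of the translocon-associated protein complex, was lower (log2 fold change −1.06, edgeR SE 0.22, adjusted p = 0.00201) while Ssr2 of the same complex was higher (0.97, SE 0.24, 0.00686, lost without WCH replicate 1). Lysosomal genes gave 6 higher and 3 lower of 23 (median 0.38; 1 to 3 higher without TRAP replicate 3 or a WCH replicate, and 0 or 1 lower without TRAP replicate 2 or 3 or a WCH replicate). Gaa, the lysosomal glucosidase, had 210.2, 255 and 253 CPM in TRAP and 132, 93.9 and 112 CPM in WCH (log2 fold change 1.09, edgeR SE 0.26, adjusted p = 0.0048). Protocadherins gave 1 higher and 4 lower of 34 (median −0.13, and 0.01 without WCH replicate 3; 2 higher without TRAP replicate 1 and 0 without TRAP replicate 3; 0 to 2 lower without any one library other than WCH replicate 1).

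Markers of further cell types were lower or did not pass the test. Of 12 fibroblast and meningeal markers 3 (25%) were lower and 0 higher (median −0.42), and of 6 blood cell markers 2 (33.3%) and 0 (median −1.02). Of 7 ependymal and choroid plexus markers 1 (14.3%) was lower and 0 higher (median −1.18), near the 11.3% of all genes. Of 8 mural cell markers 0 were lower and 0 higher (median 0.21). These counts moved with single libraries: 1 fibroblast and meningeal marker was lower without TRAP replicate 1 or WCH replicate 2 or 3, 0 blood cell markers without TRAP replicate 1 or WCH replicate 2 and 1 without any other library, and 0 ependymal markers without TRAP replicate 2 or 3 or WCH replicate 2 but 2 without TRAP replicate 1. Without TRAP replicate 2, 2 mural cell markers were lower and the median of that list was −0.56. The summed level of the blood cell markers was 11.1 to 22.2 CPM in TRAP and 32.4 to 43.7 CPM in WCH. Hbb-bs, a haemoglobin chain of red blood cells, had 3.45, 11.3 and 9.62 CPM in TRAP and 22.2, 23.9 and 18.4 CPM in WCH (log2 fold change −1.42, edgeR SE 0.38, adjusted p = 0.0107, lost without TRAP replicate 1 or WCH replicate 2). Hippocampal and striatal markers, by contrast, gave 2 higher (14.3%) and 3 lower (21.4%) of 14 (median 0.15), against 11.4% and 11.3% of all genes. In that list 0 or 1 were higher when a library was left out, and 1 was lower without any one library other than TRAP replicate 1. Prox1, a marker of dentate granule cells that some cortical interneurons share, had 51.5, 29.7 and 34.1 CPM in TRAP and 107, 87.2 and 70.7 CPM in WCH (log2 fold change −1.20, edgeR SE 0.25, adjusted p = 0.00195).

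Among the cytoskeletal genes the sizes of change were large but rested heavily on a single library. Of 27 actin, spectrin and ankyrin genes 13 were higher and 1 lower (median 0.71). Their mean level was 8.56, 7.73 and 9.40 log2(CPM + 1) in TRAP and 7.69, 7.73 and 7.62 in WCH, so that TRAP replicate 2 lay at the homogenate level and TRAP replicate 3 far above it. Sptbn1 (chromosome 11, 30099395 to 30268175), a beta spectrin of the membrane skeleton, had 3679, 766 and 23711 CPM in TRAP and 746, 916 and 608 CPM in WCH. Ank2 (chromosome 3, 126921612 to 127499350), an ankyrin that links spectrin to membrane proteins, had 4311, 875 and 18456 CPM in TRAP and 904, 1049 and 918 CPM in WCH. TRAP replicate 2 lay within the range of WCH in Sptbn1 and below every WCH value in Ank2, while TRAP replicates 1 and 3 lay above WCH in both. The test called both genes (log2 fold change 3.63, edgeR SE 1.03, adjusted p = 0.0363 for Sptbn1, and 3.04, SE 0.86, 0.0334 for Ank2). Both calls were lost without any one WCH replicate, up to an adjusted p of 0.108 for Sptbn1. The count of 13 was 7 without TRAP replicate 3 and 2, 2 and 1 without WCH replicates 1, 2 and 3.

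This spread had a fixed order. Of the 6862 genes with a mean of at least 20 CPM, 69 were over 4-fold higher in TRAP replicate 3 than in TRAP replicate 2, and 0 were over 4-fold lower. In each of the 40 with the largest ratio, TRAP replicate 1 lay between the others, and 18 of the 40 were called higher in TRAP. The 40 were picked for that ratio after the values were seen, so these counts only describe them. They include the spectrin genes Sptan1, Sptb and Sptbn1, the ankyrin genes Ank2 and Ank3, the nonmuscle myosin heavy chains Myh9 and Myh10, the unconventional myosins Myo5a and Myo6, the actin-binding drebrin Dbn1, the gelsolin gene Gsn and the cytolinkers Dst, Macf1 and Plec. Gsn, for example, had 237, 24.1 and 862 CPM in TRAP and 45.6, 50.1 and 53.4 CPM in WCH (edgeR adjusted p = 0.0923). Myh10 had 537, 180 and 2041 CPM in TRAP and 172, 192 and 162 CPM in WCH (edgeR adjusted p = 0.0407). Over the same 40 genes the highest WCH value was a median of 1.25 times the lowest. What sets TRAP replicates 2 and 3 apart was not tested.

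**Figure D4:**
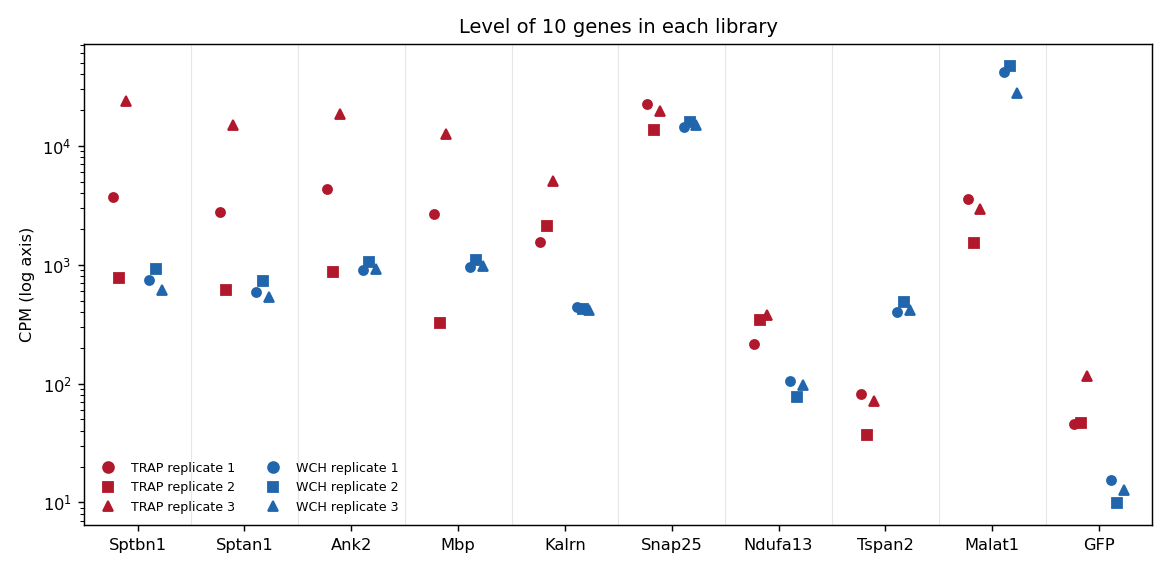
Points give the level of 10 genes in each library in CPM on a log axis, with TRAP in red to the left of WCH in blue. The spectrin and ankyrin genes and Mbp run from TRAP replicate 2 through 1 to 3 over more than a factor of 10, while Kalrn, Ndufa13, Tspan2, Malat1 and GFP separate the groups in every library.

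Tubulins and microtubule-associated proteins were higher in 12 of 28 cases and lower in 0 (median 0.64; 6 without TRAP replicate 3, and 7 and 8 without WCH replicates 2 and 3), and kinesin and dynein genes in 11 of 47 with 1 lower (median 0.19; 5 without TRAP replicate 3 and 6 without WCH replicate 2). Tubb4b, a beta tubulin, had 182, 144 and 333 CPM in TRAP and 64.2, 63.1 and 71.7 CPM in WCH (log2 fold change 1.73, edgeR SE 0.28, adjusted p = 0.000378). Dctn3, a subunit of the dynactin complex that attaches dynein to cargo, had 150, 197 and 236 CPM in TRAP and 83.4, 64.4 and 71.9 CPM in WCH (log2 fold change 1.41, edgeR SE 0.23, adjusted p = 0.000347). Both stood clear of their homogenate values in every TRAP library. Dync1h1, the dynein heavy chain, had 2299, 818 and 3133 CPM in TRAP and 472, 269 and 409 CPM in WCH (2.44, SE 0.41, edgeR adjusted p = 0.000686), and it kept its call without any one library. Kalrn, an exchange factor for small GTPases in dendritic spines, had the smallest adjusted p of the 12 genes with the highest fold change, with 1553, 2129 and 5025 CPM in TRAP and 442, 426 and 415 CPM in WCH (log2 fold change 2.76, edgeR SE 0.32, adjusted p = 1.94e-05).

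Several noncoding RNAs of the nucleus had low values in TRAP. Of 273 long noncoding RNAs, which are not all nuclear, 4 were higher and 44 (16.1%) lower, against 11.3% of all genes, with a median of −0.75 and of 0.00 in protein-coding genes. Of 13 nuclear long noncoding RNAs in the list 5 were lower and 0 higher (median −1.18; 2 or 3 without TRAP replicate 1 or WCH replicate 1 or 2). Of 7 small nucleolar RNA host genes 0 were called in either direction (median −0.59). In 4 of them every TRAP library lay below every WCH library, which held for 23% of all genes tested. The summed level of the host genes was 398, 321 and 523 CPM in TRAP and 2171, 2667 and 2426 CPM in WCH. A sum rests mainly on the most abundant members. The mean level of the host genes was 4.06, 3.89 and 3.78 log2(CPM + 1) in TRAP and 4.59 to 4.81 in WCH. Their log2 fold changes ran from −2.80 to 0.02. Malat1 (chromosome 19, 5795690 to 5802672), an RNA of nuclear speckles, had 3543, 1536 and 2942 CPM in TRAP and 41833, 47144 and 27634 CPM in WCH (log2 fold change −3.86, edgeR SE 1.05, adjusted p = 0.0306). Miat, another nuclear RNA, had 24.0, 29.9 and 46.5 CPM in TRAP and 287, 311 and 247 CPM in WCH (log2 fold change −3.08, edgeR SE 0.79, adjusted p = 0.0246). Their groups stood far apart, yet the call of Malat1 was lost without WCH replicate 1 or 2 (up to 0.0697) and that of Miat without TRAP replicate 1 or 2 or WCH replicate 1 or 2 (up to 0.06). Ftx, a noncoding RNA of the X inactivation centre, was lower at 8.05, 5.75 and 11.1 CPM in TRAP against 46.4, 50.7 and 42.7 CPM in WCH (log2 fold change −2.49, edgeR SE 0.44, adjusted p = 0.000933). Cdr1, listed as a gene of the X chromosome from which a circular RNA arises on the opposite strand, had 193, 37.4 and 121 CPM in TRAP and 1298, 2037 and 1747 CPM in WCH (log2 fold change −3.85, edgeR SE 0.66, adjusted p = 0.00305). No source used here gives the strand setting of the counts, so reads of either strand of Cdr1 cannot be told apart.

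Lists of gene regulation differed in their counts. Zinc finger protein genes were higher in 12 (3.74%) and lower in 44 (13.7%) of 321 cases (median −0.30), and splicing factor genes in 8 (7.92%) and 21 (20.8%) of 101 (median −0.35), against 11.4% and 11.3% of all genes. The lower share of the zinc finger genes was thus near that of all genes. Their GC content is low, with medians of 45.7% and 46.4%. In place of 44, the lower zinc finger genes numbered 12 and 16 without WCH replicates 2 and 3 and 18 to 29 without TRAP replicate 2 or 3 or WCH replicate 1. Those higher numbered 4 or 5 without TRAP replicate 3 or any WCH replicate. The lower splicing factor genes numbered 10 to 13 without TRAP replicate 2 or WCH replicate 2 or 3, and 4 were higher without TRAP replicate 3. Luc7l2, a component of the U1 particle, had 50.5, 35.6 and 44.5 CPM in TRAP and 120, 146 and 105 CPM in WCH (log2 fold change −1.51, edgeR SE 0.25, adjusted p = 0.000418). Within the same list Prpf8, the large protein at the centre of the spliceosome, was higher, with 866, 955 and 859 CPM in TRAP and 209, 196 and 188 CPM in WCH (log2 fold change 2.18, edgeR SE 0.27, adjusted p = 3.03e-05). Its TRAP values differed little from each other, and its fold change stayed between 2.19 and 2.23 when any 1 of the TRAP and WCH libraries was left out. Chromatin regulators were higher in 4 and lower in 0 of 30 cases (median 0.18; 2 higher without TRAP replicate 3 or WCH replicate 3, and 6 without TRAP replicate 2), with Hdac5 at 157, 125 and 237 CPM in TRAP and 75.2, 59.3 and 63.9 CPM in WCH (log2 fold change 1.39, edgeR SE 0.29, adjusted p = 0.00211). Of 19 immediate early genes, which neurons switch on with activity, 1 was called: Arc had 278, 399 and 552 CPM in TRAP and 135, 234 and 132 CPM in WCH (log2 fold change 1.29, edgeR SE 0.34, adjusted p = 0.0103), and this call was lost without TRAP replicate 3 or WCH replicate 1 or 3 (up to 0.0637).

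Among the 12 genes with the lowest called fold change were several outside all of the lists. Onecut2, a transcription factor gene, had 4.17, 6.32 and 3.45 CPM in TRAP and 38.4, 36.8 and 26.8 CPM in WCH (log2 fold change −2.87, edgeR SE 0.35, adjusted p = 2.99e-05). Wsb1, an adaptor of a ubiquitin ligase, had 10.8, 7.47 and 8.72 CPM in TRAP and 55.1, 71.6 and 61.2 CPM in WCH (log2 fold change −2.79, edgeR SE 0.34, adjusted p = 2.99e-05). Elovl7, a fatty acid elongase, had 5.32, 6.32 and 6.54 CPM in TRAP and 32.4, 36.9 and 38.1 CPM in WCH (log2 fold change −2.56, edgeR SE 0.25, adjusted p = 3.7e-06). In all of these the TRAP values lay close together and far below every WCH value. Tspan2, a tetraspanin on the oligodendrocyte list, had 80.9, 36.8 and 71.4 CPM in TRAP and 402, 482 and 418 CPM in WCH, with the same adjusted p as Elovl7 (log2 fold change −2.78, SE 0.28).

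The effect of the pull-down in whole cortex was compared with that in the synaptic fraction, which uses none of the same libraries. The material may still be shared. Same-numbered TRAP and SynapTRAP libraries correlated by 0.11, 0.14 and 0.09 in their deviations from group means, and other-numbered ones by −0.09 to −0.01. Same-numbered WCH and SNF libraries correlated by 0.18, 0.07 and 0.07, and other-numbered ones by −0.13 to 0.04. In SynapTRAP against SNF 315 genes (2.4%) were higher and 247 (1.88%) lower. Of these, 190 were higher in both pull-downs, which is 12.7% of the genes higher in TRAP and 60.3% of those higher in SynapTRAP. Another 145 were lower in both, which is 9.80% of the genes lower in TRAP and 58.7% of those lower in SynapTRAP. Called in opposite directions were 0 genes. The difference between both effects, tested in the same edgeR model, was called in 126 genes, 51 (0.388%) with a higher and 75 (0.571%) with a lower value in whole cortex. Same-numbered SynapTRAP and SNF libraries deviated together from their group means (correlations 0.24, 0.34 and 0.41), and with a replicate block within these libraries, a setting added after the data were seen, 570 genes were higher and 542 lower in SynapTRAP, 798 differed between both effects and 4 were called in opposite directions. With the replicate number as a block over all libraries, 444 were higher, 397 lower and 372 differed. The number of differences was unstable: 0 remained without WCH replicate 2 or SNF replicate 1, where 1739 and 1963 genes had an unadjusted p under 0.05, whereas DESeq2 called 575.

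Genes at the ends of that difference included small proteins of mitochondria and of ribonucleoprotein particles. Ndufa13, a subunit of respiratory complex I, had 214, 346 and 381 CPM in TRAP and 105, 77.3 and 98.1 CPM in WCH, a log2 fold change of 1.75, against −0.30 for SynapTRAP over SNF. Romo1, a small protein of the inner mitochondrial membrane, had 69.4, 104 and 131 CPM in TRAP and 35.5, 22.2 and 31.9 CPM in WCH, a log2 fold change of 1.77, against −0.33 in the synaptic fraction. Nop10, of the particles that modify RNA with pseudouridine, had log2 fold changes of 1.51 and −0.57 in the same order. At the other end, Ermn, a cytoskeletal protein of myelinating cells, had 22.1, 9.39 and 27.4 CPM in TRAP and 108, 119 and 92.6 CPM in WCH, a log2 fold change of −2.43, against −0.03 for SynapTRAP over SNF. Gpr34, a receptor of microglia, was lower in both, by log2 fold changes of −3.67 and −1.21, with 0.431, 0.383 and 1.27 CPM in TRAP and 5.23, 11.2 and 10.7 CPM in WCH.

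**Figure D5:**
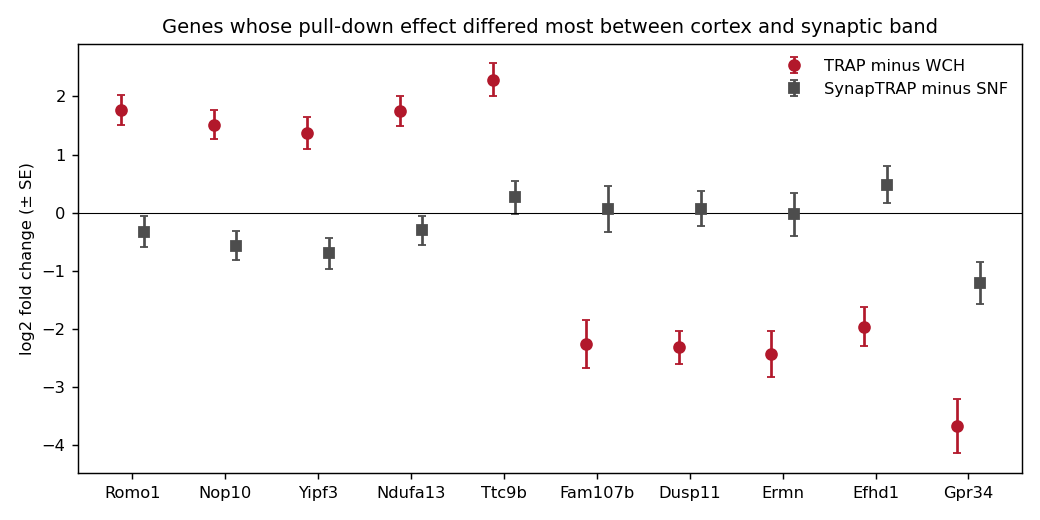
Points give the log2 fold change, with its standard error, of TRAP over WCH (red) and of SynapTRAP over SNF (grey) for the 5 genes with the largest and the 5 with the smallest called difference between both. The synaptic effects lie between −1.21 and 0.48, and those in whole cortex lie at 1.38 or more or at −1.96 or less.

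The authors' deposited table of somatic translation candidates lists 275 genes, all of them tested here. In the present fit 117 of the 275 were higher in TRAP than in WCH and 0 were lower. The authors' deposited table gives log fold changes of 0.382 to 1.95 for them, which ranked the genes as the log2 fold changes of TRAP over WCH did here (Spearman correlation 0.9998 across genes). That list was chosen by the study on these libraries, so its direction is not independent evidence.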

How the data were processed

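RNA sequencing of 6 mouse cortex libraries, 3 TRAP and 3 WCH, was analysed together with 3 SynapTRAP and 3 SNF libraries. Per the labels, a NuGEN kit made the cDNA. The submitters' processing notes name the tools Bowtie2, STAR, HTSeq and edgeR, and no source used here gives their versions, the genome build, the annotation or the strand setting. The authors deposited 1 raw count per gene and library for 29879 genes plus 5 summary lines, which held 37.4% to 58.3% of all reads of the 6 libraries and were left out. A further table by the authors holds, per the file headers, log fold changes, p-values and false discovery rates. Their base is not stated. The authors' values were 1.02 to 1.15 times the log2 fold changes computed here.

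Symbols (28759 identifiers; 1120 had none), coordinates and transcript features came from GENCODE M21 (GRCm38). One edgeR 4.0.16 model (R 4.3.3) covered all 12 libraries, with a mean per group, the default expression filter, trimmed mean of M-values scaling without genes of the mitochondrial genome, and the robust quasi-likelihood test with Benjamini-Hochberg adjustment over 13137 genes. CPM values use the same scaling. Each gene counted 1 transcript, the one with the longest coding sequence. Lists of genes (51) were described by counts of calls and medians, with no set test. On simulated counts 33.5% of 200 genes changed by a log2 size of 1 were recovered, with 1 false call among 12963 genes.

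Genes were named by rule: the 12 highest and 12 lowest called fold changes at a mean of at least 10 CPM without overlap, up to 3 called members per list and direction by smallest p, the 10 most abundant in TRAP, fixed markers, and the 5 largest and 5 smallest differences between both pull-down effects. The comparison, its members and the lists were chosen with earlier results of these data known. Alternatives were other scalings, DESeq2 1.42.0, no filter, a replicate block, only these 6 libraries, and leaving out each library. Same-numbered TRAP and WCH libraries hardly deviated together from their group means (correlations 0.03, 0.06 and −0.02). Such values cannot show whether these libraries share a source, and in every group the library numbered 1 was the one with Xist RNA. The main model has no block. SynapTRAP and SNF libraries of the same number did deviate together (correlations 0.24, 0.34 and 0.41), and a block within them was added as an alternative. A few named genes are not reported here.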

Additional observations from a re-analysis of the deposited data

Results flagged for a closer look

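The effect of the pull-down in whole cortex (TRAP minus WCH) differed from that in the synaptic fraction (SynapTRAP minus SNF) in 126 genes, by edgeR's test of the difference itself. The largest positive differences on the log2 scale were 2.10 in Romo1 (SE 0.36, edgeR adjusted p = 0.0115), 2.08 in Nop10, 2.08 in Yipf3, a Golgi membrane protein, 2.05 in Ndufa13 and 2.02 in Ttc9b. Their adjusted p ran up to 0.0229 in Ttc9b. The largest negative differences were −2.46 in Gpr34 (SE 0.60, edgeR adjusted p = 0.0486), −2.45 in Efhd1, −2.40 in Ermn, −2.39 in Dusp11 and −2.33 in Fam107b. Their adjusted p ran between 0.0115 in Dusp11 and 0.0496 in Fam107b. Gpr34 rests on 3, 2 and 7 counts in TRAP. All 10 kept their direction and their call with a replicate block within the SynapTRAP and SNF libraries.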

How the results depend on the processing

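All 214 called genes among the 227 named kept their direction in each of 14 alternatives, 119 kept their call in all of them, and 82 lost it without some single TRAP or WCH library. The number of genes higher or lower moved by more than 1.5 times in 6 settings, namely scaling by total counts (974 higher), leaving out TRAP replicate 3 or any WCH replicate, and the added setting below. Over the fits that left out 1 TRAP or WCH library, 720 to 1554 genes were higher and 711 to 1269 lower. An added setting, chosen after seeing the data, left out every library numbered 1 and gave 878 higher (60.5% of calls) and 573 lower, a median of 0.09 and 0 differences between both pull-downs (1625 genes with an unadjusted p under 0.05). The same-numbered TRAP and WCH libraries correlated by 0.03, 0.06 and −0.02 in their deviations from group means. Such values cannot show whether the numbers mark pairs. In every group the library numbered 1 was the one with Xist RNA, so the numbers may do so. The main model has no block, and with a replicate block 1653 genes were higher, 1758 lower and 372 differed between both pull-downs. Same-numbered SynapTRAP and SNF libraries correlated by 0.24, 0.34 and 0.41, and with a replicate block within them 798 genes differed. That difference was called in 575 genes by DESeq2, in 464 without a filter, and in 0 to 434 when a library was left out. Genes not called changed sign as follows: Gad1 gave 0.0018 without a filter and −0.35 to 0.16 when a TRAP or WCH library was left out; Gfap gave −0.0840 with total counts, −0.0653 with the replicate block and −0.53 to 0.52 when a library was left out; Xist gave −6.87 to 7.32 when a library was left out. The causes were not tested. Each group held 3 libraries, and the part of depth and of the number of libraries in these changes was not tested either.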
